A study of Mus musculus with 12 samples.

Results

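The genes described here are 46 antiviral interferon-stimulated genes of the mouse that lie outside the large Ifit, Oas, guanylate-binding protein, Schlafen, Parp and Trim families. They were given as a list of names, drawn up with earlier results of these data known and with no rule on their values, and were matched by gene symbol and Ensembl ID to 46 of the 38924 gene IDs in the count files. All 46 passed the filter on low counts and were tested among 13811 genes. The list holds 6 genes for proteins that act on virus entry, capsids or release, 13 for proteins that act on nucleotides or RNA, 6 for the conjugation of ISG15 and ubiquitin, 5 for nuclear body proteins and their partners, 9 for other intracellular proteins and 7 for proteins of the cell surface or the secreted space.

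The study asked what the adaptor protein STING does in T cells when it is strongly activated. Naive T cells, labelled as CD4+, were sorted from spleens of wild-type (WT) C57BL/6 mice and of STINGgt/gt (Goldenticket) mice on the same background, which carry a missense mutation in Tmem173, the gene for STING, and lack functional protein in every cell. All cells were stimulated through CD3 and CD28 for 2 days, kept without antibodies for 1 day and then given either the solvent DMSO or 10-carboxymethyl-9-acridanone (CMA), a cell-permeable agonist of mouse STING, at a single dose for 16 h (overnight in the methods). Each of the 4 groups (WT with DMSO, WT with CMA, STINGgt/gt with DMSO, STINGgt/gt with CMA) has 3 libraries, described by the study as biological replicates. Whether they came from separate animals is not given in the labels, and the p-values below measure the spread between these libraries.

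STING lies in the membrane of the endoplasmic reticulum and binds cyclic dinucleotides that are made when DNA appears in the cytosol. It then recruits the kinase TBK1, which phosphorylates the transcription factor IRF3, and type I interferon genes are transcribed. Interferon that is released binds its receptor on the same or on neighbouring cells, and receptor-bound kinases activate transcription factor complexes that bind the interferon-stimulated response element in the promoters of many genes. Most members of the present list are classical targets of this pathway, and some can also be bound directly by IRF3.

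Each library gave 27414450 to 43784910 reads on genes. Reads outside annotated genes made up 4.86% to 5.47% of entries in WT cells with DMSO and 6.79% to 7.16% with CMA, and 5.98% to 6.54% and 6.02% to 6.33% in STINGgt/gt cells. Replicates differed most among the WT DMSO libraries, whose pairs gave chi-square values of 9.98 to 29.9 per degree of freedom, against 2.63 to 6.82 in the other groups. Tmem173 had levels of 183 to 190 CPM (read counts relative to a TMM-adjusted library size) in WT cells with DMSO, 296 to 316 with CMA, and 168 to 184 in the 6 STINGgt/gt libraries. A missense allele leaves the transcript, so these levels do not check the genotype labels. The 8 T-cell markers summed to 3288 to 3365 CPM in WT cells with DMSO, 3040 to 3067 with CMA and 3349 to 3456 in STINGgt/gt cells, and with CMA in WT 4 of the 8 fell and 1 rose, where 37.4% of all genes tested fell and 33% rose. The part of these levels in the results below was not tested. Markers of other cells were present and differed between groups. B-cell markers summed to 656 to 718 CPM in WT cells with DMSO, 739 to 821 with CMA and 298 to 327 in STINGgt/gt cells. CD8 and natural killer markers summed to 93.9 to 111, 49.9 to 52.9 and 31.4 to 34.0 CPM in the same order. Myeloid and dendritic markers summed to 8.41 to 9.48, 3.49 to 4.19 and 1.74 to 2.68 CPM, with Siglech at 0 in all but 2 libraries and Adgre1 at 6 or fewer counts in each. In bulk RNA, fewer cells of a kind and less RNA per cell cannot be told apart.

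In WT T cells CMA raised most of the antiviral genes, several of them from a few CPM or less. Rsad2, Mx1, Ddx60, Rtp4, Ifi44, Cmpk2 and Isg15 increased by 36.1-fold to 165-fold, 34 further genes increased by 1.42-fold to 31.7-fold, and 5 genes (Pnpt1, Ifitm2, Ifi27, Ifitm1 and Ly6c2) decreased. By the quasi-likelihood test of edgeR, with p adjusted over all genes tested after Benjamini and Hochberg, 41 of 46 genes were higher and 5 were lower at an adjusted p under 0.05. Over all genes tested, 33% were called higher and 37.4% lower, 70.4% together. The median log2 fold change of the 46 was 1.95, beside -0.04 over all genes tested, and the values ran from -0.86 to 7.37. A log2 fold change over 1 was reached by 36 of the 46 and by 9.32% of all genes tested, one over 3 by 12 and 1.55%, and one over 5 by 7 and 0.601%. Every CMA library lay above every DMSO library for 41 genes (33.5% of all genes tested) and below for 4 (37.6%), and for Ifitm2 the libraries overlapped.

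**Figure D1:**
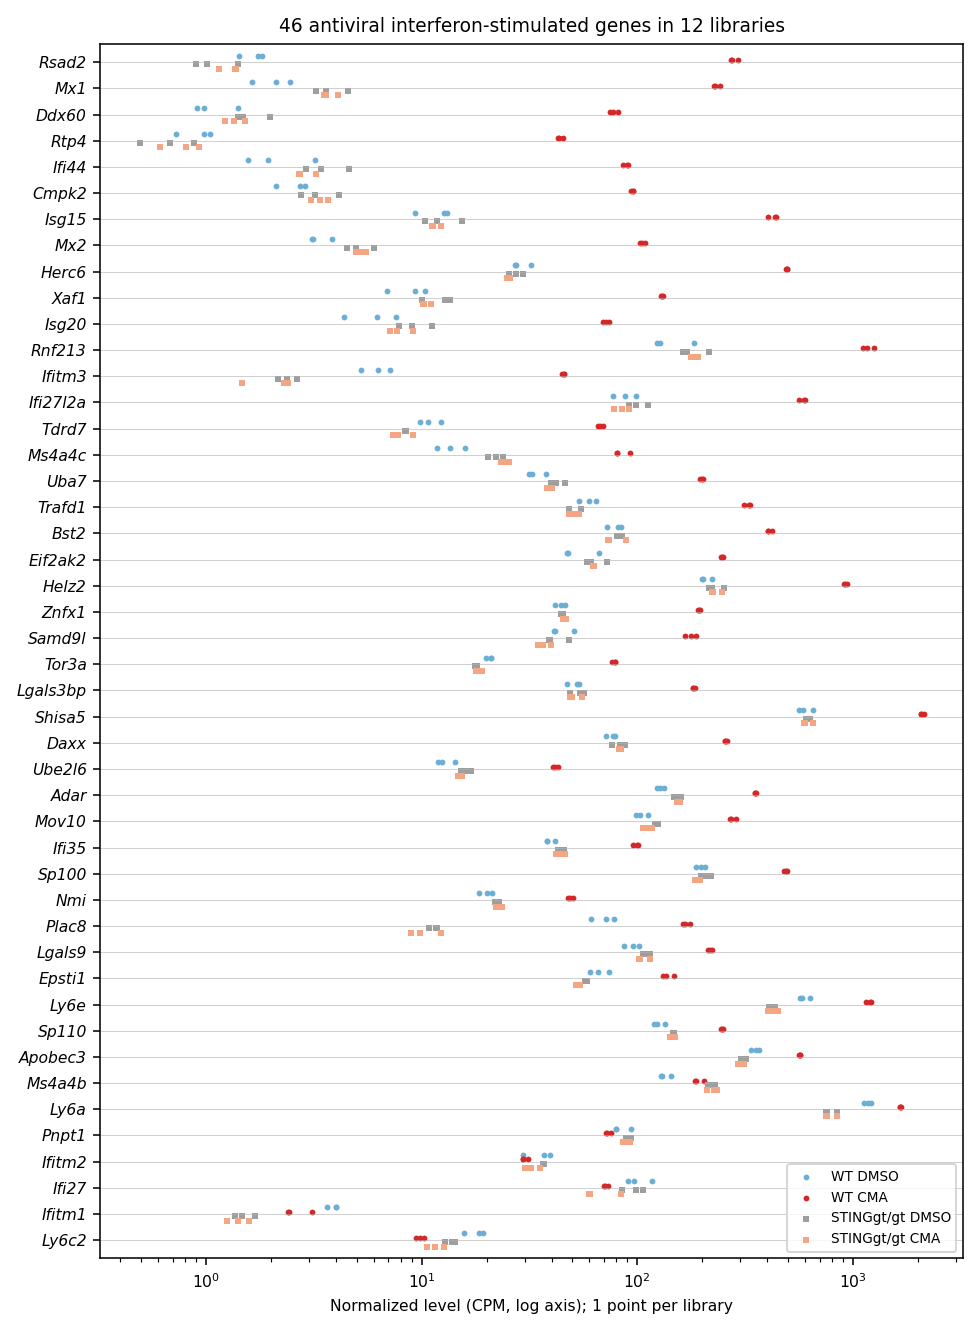
Levels of the 46 genes in the 12 libraries, as TMM-scaled CPM on a log axis, with 1 point per library and the genes in the order of their log2 fold change in WT. The 3 WT libraries with CMA (red) stand to the right of the other 9 for most genes, whereas both STINGgt/gt groups (squares) lie together.

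In STINGgt/gt T cells the same treatment left nearly all of these genes near their DMSO level. By edgeR's quasi-likelihood test 0 of 46 genes were higher and 1, Ifi27, was lower (adjusted p = 0.0429), while 0.398% of all genes tested were called higher and 0.92% lower, 1.32% together. An unadjusted p under 0.05 was found for 6 members, each with a negative value, and for 13% of all genes tested. DESeq2, limma-voom and limma on the authors' log2 values also called 0 members higher. The count called lower was 0 with DESeq2, 4 with only the STINGgt/gt libraries in the fit (Ifitm2, Sp100, Ifi27 and Ifi27l2a) and 0 to 2 when 1 library was left out. The median log2 fold change was -0.04. The 95% intervals of the 45 genes that were not called lay between -0.72 and 0.67 on the log2 scale, and those of 39 stayed within 0.5 of zero. For 6 genes (Mov10, Sp100, Epsti1, Ifitm2, Ifi27 and Ly6c2) every CMA library lay below every DMSO library, which was so for 11.3% of all genes tested, and for none did every CMA library lie above.

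The difference between the genotypes was tested as the CMA effect in WT minus that in STINGgt/gt. It was positive and past the threshold for 41 of 46 genes and negative for 1, Ly6c2 (edgeR, adjusted p = 0.000332), against 27.2% and 31.6% of all genes tested (58.8% together). The median difference was 1.99 on the log2 scale. The other 4 genes that fell in WT, Pnpt1, Ifitm2, Ifi27 and Ifitm1, did not pass this test.

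**Figure D2:**
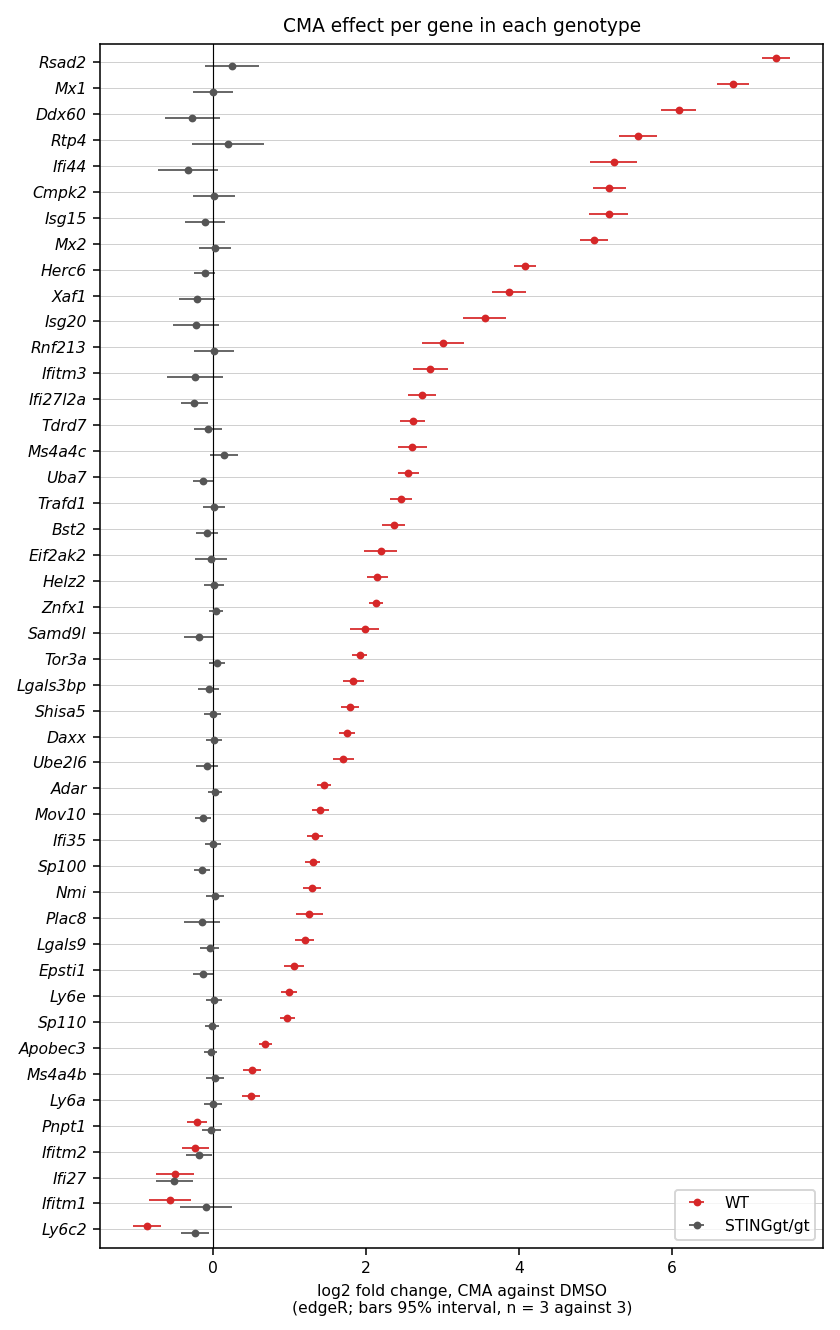
Log2 fold change of each gene with CMA against DMSO in WT (red) and STINGgt/gt (grey) T cells, with 95% intervals from the edgeR model (3 libraries against 3). The WT values run from -0.86 for Ly6c2 to 7.37 for Rsad2, and the STINGgt/gt values lie near 0 except for Ifi27 at -0.50.

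Of the genes that act on the virus life cycle, 4 of 6 rose in WT and 2 fell. This count and those of the role groups below stand beside the 33% of all genes tested that rose and the 37.4% that fell. Mx1 and Mx2 encode dynamin-like GTPases that oligomerise around viral nucleocapsids; C57BL/6 mice carry a defective Mx1 allele that makes no functional protein, so its transcript serves as a reporter of the response rather than as a defence. Mx1 measured 1.64, 2.45 and 2.12 CPM in WT with DMSO and 242, 229 and 227 with CMA, and 3.61, 3.23 and 4.54 against 3.62, 4.09 and 3.53 in STINGgt/gt. The WT libraries with CMA were far above all others, a 111-fold increase (log2 6.80, SE 0.098, edgeR adjusted p = 5.88e-18), and the STINGgt/gt groups overlapped. Mx2, 73.2 kb away on chromosome 16, rose from 3.13, 3.82 and 3.10 to 109, 105 and 103 CPM, which is 31.7-fold (log2 4.99, adjusted p = 5.26e-17). Bst2 encodes tetherin, which holds budding virions at the cell surface. Its levels were already 72.5, 84.1 and 81.6 CPM with DMSO and reached 420, 403 and 404 with CMA (5.15-fold, log2 2.36, edgeR adjusted p = 3.34e-14), while the STINGgt/gt libraries stayed between 72.9 and 88.7.

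The 3 Ifitm genes, neighbours on chromosome 7 with 11.3 and 39.8 kb between them, moved in different directions in WT. They encode small membrane proteins that hinder the fusion of viruses with endosomes. Ifitm3 rose 7.18-fold, from 5.21, 6.31 and 7.14 CPM to 45.5, 45.7 and 44.6 (log2 2.84, edgeR adjusted p = 6.2e-13). Ifitm1 fell from 4.01, 4.03 and 3.66 CPM to 2.43, 2.41 and 3.09, which is 32.1% lower (log2 -0.56, adjusted p = 0.00109), with groups that did not overlap. Ifitm2 measured 39.3, 36.9 and 29.5 CPM with DMSO and 29.4, 31.0 and 29.4 with CMA (log2 -0.23, edgeR adjusted p = 0.0242), and here the third DMSO library lay within the CMA range. The decrease of Ifitm2 lost its call without WT DMSO replicate 1 or 2 or WT CMA replicate 1 or 3, with an adjusted p of up to 0.18 over the alternatives. The CMA effects on Ifitm1 and Ifitm2 were not shown to differ between genotypes (log2 differences of -0.47, adjusted p = 0.0597, and -0.05, adjusted p = 0.752, by edgeR). That of Ifitm1 passed without WT DMSO replicate 3, WT CMA replicate 3, STINGgt/gt DMSO replicate 2 or STINGgt/gt CMA replicate 3, with adjusted p-values of 0.0209 to 0.0497 by edgeR.

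Among the genes for proteins acting on nucleotides and RNA, 12 of 13 rose and Pnpt1 fell. Rsad2 had the largest change of the 46 and the 18th largest by size of all 13811 genes. It encodes viperin, a radical SAM enzyme that converts CTP into a chain-terminating nucleotide. Its levels were 1.42, 1.74 and 1.83 CPM in WT with DMSO, 292, 275 and 271 with CMA, and between 0.902 and 1.40 in the 6 STINGgt/gt libraries. This was a 165-fold increase (log2 7.37, SE 0.086, edgeR adjusted p = 6.38e-19) with no overlap. Cmpk2, a mitochondrial kinase that supplies CTP and lies 12.8 kb from Rsad2 on chromosome 12, rose from 2.11, 2.72 and 2.88 to 95.5, 93.6 and 95.5 CPM, or 36.4-fold (log2 5.18, edgeR adjusted p = 2.08e-16). Both genes of this pair were thus among the 7 with a log2 change over 5.

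Ddx60, a helicase linked to RNA sensing, measured 0.983, 0.906 and 1.41 CPM with DMSO and 81.0, 74.5 and 77.0 with CMA in WT, and 1.22 to 1.98 in STINGgt/gt. The WT change was 68-fold (log2 6.09, edgeR adjusted p = 8.42e-17). Isg20, a 3' to 5' exonuclease that degrades single-stranded RNA, followed at 11.7-fold, from 4.37, 7.61 and 6.19 to 69.4, 73.5 and 71.9 CPM (log2 3.55, adjusted p = 5.66e-13). The remaining risers of this group increased less and from higher levels. Tdrd7, a tudor-domain protein, increased 6.11-fold, Eif2ak2, which encodes the double-stranded RNA-dependent kinase PKR, 4.57-fold, the helicase gene Helz2 4.44-fold, and the zinc finger helicase gene Znfx1 4.38-fold. Samd9l, which restricts poxviruses, rose 3.96-fold, the RNA editing enzyme gene Adar 2.74-fold, and Mov10, a helicase that restrains retroelements, 2.65-fold. Apobec3, a cytidine deaminase that mutates retroviral DNA, stood at 336, 354 and 365 CPM with DMSO and at 565, 569 and 565 with CMA, the smallest increase of the group (1.61-fold, log2 0.69, edgeR adjusted p = 3.36e-10).

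Pnpt1 encodes a mitochondrial polyribonucleotide phosphorylase. It measured 79.3, 79.5 and 93.9 CPM in WT with DMSO and 72.0, 71.2 and 75.8 with CMA, 13.5% lower (log2 -0.21, edgeR adjusted p = 0.00548). The groups did not overlap, although the third DMSO library stood apart from the others. In STINGgt/gt T cells its levels were 88.2 to 93.9 with DMSO and 86.2 to 92.7 with CMA, and the difference between the genotypes did not pass the test (log2 -0.19, edgeR adjusted p = 0.0666). It passed without WT DMSO replicate 1 (adjusted p = 0.0481), without WT DMSO replicate 2 (adjusted p = 0.0131) and with library-size scaling (adjusted p = 0.0279). With the replicate number as a block in the edgeR model it passed as well.

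All 6 genes of ISG15 and ubiquitin conjugation rose. ISG15 is a ubiquitin-like protein that is attached to newly made viral and host proteins by a cascade in which UBA7 is the activating enzyme, UBE2L6 the conjugating enzyme and, in the mouse, HERC6 the main ligase. The modifier and the ligase changed more than the 2 enzymes that act between them. Isg15 went from 9.32, 13.1 and 12.7 CPM to 441, 434 and 405 (36.1-fold, log2 5.17, edgeR adjusted p = 1.54e-15). Herc6 went from 27.2, 27.2 and 32.2 to 492, 486 and 492 CPM (16.9-fold, log2 4.08, adjusted p = 2.5e-17). Neither gene had a WT library with CMA near the range of the other groups, since Isg15 was at most 15.4 and Herc6 at most 29.7 CPM in STINGgt/gt.

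Uba7 rose 5.87-fold, from 32.5, 37.6 and 31.5 to 201, 199 and 195 CPM (log2 2.55). Ube2l6 had the smallest change of the group, from 11.9, 14.2 and 12.4 to 42.9, 41.7 and 40.7 CPM (3.26-fold, log2 1.70, edgeR adjusted p = 7.56e-13). Rnf213, a very large ubiquitin ligase that binds ISG15-modified proteins, measured 127, 124 and 183 CPM with DMSO and 1160, 1107 and 1248 with CMA (8.07-fold, log2 3.01, adjusted p = 3.49e-12). Trafd1, a feedback regulator of innate signalling, rose 5.49-fold (log2 2.46).

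The 5 nuclear body genes and binding partners rose by a narrower range, 1.96-fold to 3.38-fold. Daxx, a histone chaperone of PML bodies that silences incoming viral genomes, changed most, from 71.7, 78.9 and 77.1 to 255, 260 and 254 CPM (log2 1.76, edgeR adjusted p = 2.64e-14). Sp110 changed least, from 120, 134 and 123 to 250, 246 and 244 CPM (log2 0.97, adjusted p = 9.71e-12). Its neighbour Sp100, 51.2 kb away on chromosome 1 and a core PML body protein, rose 2.47-fold. Nmi and Ifi35, whose products bind each other, rose 2.45-fold and 2.52-fold.

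Of the 9 other intracellular genes 8 rose. Rtp4, a membrane-associated protein that inhibits flaviviruses, came from the lowest mean level of all members, 0.728, 1.04 and 0.975 CPM, or 20 to 40 reads, and reached 43.2, 45.2 and 43.1 CPM (47.2-fold, log2 5.56, edgeR adjusted p = 6.77e-16). Ifi44, a cytoplasmic protein of the interferon response, rose 37.8-fold from 1.57, 1.95 and 3.19 to 89.2, 85.6 and 90.7 CPM, and Xaf1, a partner of the caspase inhibitor XIAP, 14.6-fold from 6.92, 10.3 and 9.29 to 131, 129 and 132 CPM. The torsin gene Tor3a rose 3.78-fold, and Epsti1, an interferon-induced gene first described in epithelial and stromal cells, 2.08-fold. Shisa5, which encodes the p53-inducible endoplasmic reticulum protein Scotin, measured 589, 652 and 563 CPM with DMSO and 2061, 2133 and 2067 with CMA, a 3.47-fold change that was the largest in absolute CPM (log2 1.80, edgeR adjusted p = 4.36e-14).

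The 2 Ifi27 genes, 1.93 kb apart on chromosome 12 and on opposite strands, moved in different directions in WT. Ifi27l2a rose 6.67-fold in WT, from 77.2, 98.2 and 87.4 to 564, 592 and 597 CPM (log2 2.74, edgeR adjusted p = 7.85e-14). In STINGgt/gt its value was negative and not called (log2 -0.24, edgeR adjusted p = 0.21). There it was called lower without a filter, with only the groups compared, with a replicate block and without WT DMSO replicate 2. Ifi27 fell in WT from 90.2, 117 and 96.4 to 71.0, 73.1 and 70.4 CPM (29.4% lower, log2 -0.50, adjusted p = 0.00112) and in STINGgt/gt from 98.2, 85.1 and 106 to 84.0, 59.9 and 60.3 CPM (29.4% lower, log2 -0.50, 95% interval -0.75 to -0.26). It was the single member called in STINGgt/gt cells, and a difference of the effect between genotypes was not shown (log2 difference 0.00, 95% interval -0.35 to 0.35, edgeR adjusted p = 0.996). The call in STINGgt/gt lay near the threshold. It was lost in 9 of 21 alternatives, with DESeq2 and without any WT CMA library, any STINGgt/gt DMSO library, STINGgt/gt CMA replicate 2 or STINGgt/gt CMA replicate 3, with an adjusted p of up to 0.204. The log2 fold change of Ifi27 in STINGgt/gt stayed between -0.68 and -0.42 over the alternatives.

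**Figure D3:**
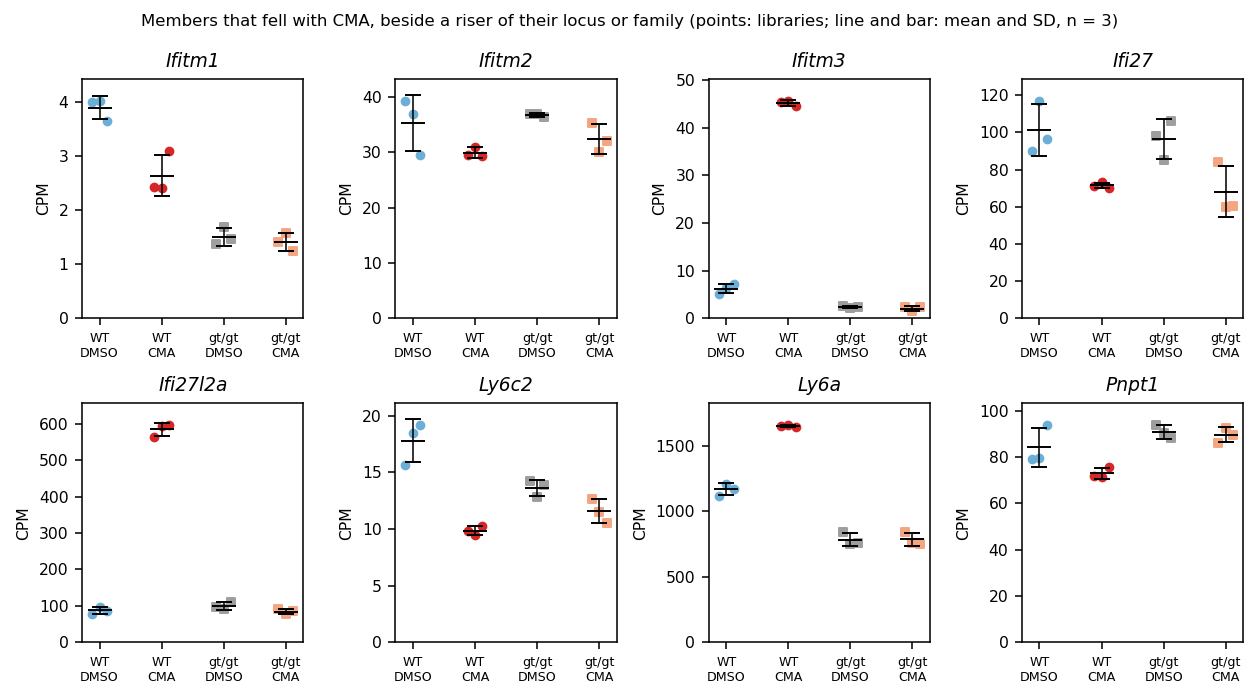
The 5 genes that fell in WT with CMA (Ifitm1, Ifitm2, Ifi27, Ly6c2, Pnpt1) beside the risers Ifitm3, Ifi27l2a and Ly6a of the same loci, in CPM from 0, with 1 point per library and the mean and SD of 3 libraries per group. Ifi27 is lower with CMA in both genotypes, and Ifitm3 and Ifi27l2a rise in WT where Ifitm1 and Ifi27 fall.

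Of the 7 surface and secreted proteins 6 rose. Ms4a4c, a tetraspanning membrane protein of leukocytes, led with 6.09-fold, from 11.7, 13.5 and 15.8 to 80.2, 80.3 and 92.2 CPM (log2 2.61, edgeR adjusted p = 2.15e-13). Lgals3bp, a secreted glycoprotein that binds galectin 3, rose 3.57-fold, and Lgals9, which encodes galectin 9, 2.30-fold. Ms4a4b, 16.3 kb from Ms4a4c on chromosome 19, rose 1.43-fold, from 129, 131 and 143 to 185, 188 and 203 CPM. Its WT libraries with CMA were still below all 6 STINGgt/gt libraries, which lay between 211 and 235 CPM. The genotype difference behind this is given below.

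The 3 Ly6 genes on chromosome 15 encode small proteins held on the surface by a lipid anchor. Ly6e, which blocks the entry of coronaviruses, rose 2.00-fold, from 565, 630 and 581 to 1142, 1205 and 1199 CPM (log2 1.00, edgeR adjusted p = 3.11e-11). Ly6a, known as Sca-1 and raised on activated T cells, rose 1.42-fold, from 1118, 1211 and 1174 to 1653, 1661 and 1645 CPM (log2 0.50, edgeR adjusted p = 4e-07). In CPM it was the most abundant member in each group except WT with CMA, where Shisa5 was higher. Ly6c2 had the largest decrease of the 46, from 15.7, 18.5 and 19.2 to 9.88, 9.44 and 10.2 CPM, 44.9% lower (log2 -0.86, adjusted p = 1.68e-07).

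In STINGgt/gt cells Ly6c2 measured 14.2, 12.9 and 13.8 CPM with DMSO and 12.7, 11.5 and 10.6 with CMA. The STINGgt/gt groups did not overlap either, but the decrease was smaller and not called (log2 -0.24, edgeR adjusted p = 0.224), and the difference between genotypes was -0.62. Ly6C marks subsets of memory T cells and of myeloid and natural killer cells. Beside its decrease stands that of the CD8 and natural killer markers in WT, of which 5 of 6 fell with CMA. Of the myeloid and dendritic markers 3 of 5 tested fell, and of all genes tested 37.4%. The myeloid and dendritic markers were highest in WT with DMSO and may have passed the filter only through those libraries. Their count may therefore not be independent of the decrease. The part of other cells in the change of Ly6c2 was not tested. Reads that fit several places were not counted on any gene, so members with close copies, such as Ly6c2 and the Ifitm and Ms4a4 genes, may be undercounted.

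The increase added up to a visible share of the transcriptome. The 46 genes together made up 0.471% to 0.513% of reads on genes in WT with DMSO, 1.46% in each WT library with CMA, and 0.443% to 0.481% in STINGgt/gt. Their summed level went from 4950 ± 215 to 14924 ± 38.5 CPM in WT (SD, n = 3) and from 4585 ± 163 to 4484 ± 159 in STINGgt/gt. Ly6a gave 23.6% of that sum in WT with DMSO and 11.1% with CMA, Rnf213 2.92% and 7.85%.

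Genes with low levels without CMA tended to change more, with exceptions: Ifitm1 was among the lowest and fell, and Isg15 was above 10 CPM and rose 36.1-fold. Sorted by their level in STINGgt/gt cells with DMSO, libraries that do not enter the WT fold change, the 11 genes under 10 CPM had a median log2 fold change in WT of 5.2, the 22 between 10 and 100 CPM of 1.9 and the 13 above 100 CPM of 1.3. Across the 46 genes, which share their libraries and are not independent, Spearman's rho between that level and the WT log2 fold change was -0.55. Per kilobase of exon, with all annotated exons of a gene merged, Ly6a, Ifi27l2a and Shisa5 were the 3 highest members in every group. The merged length can exceed that of the transcript made, which lowers the value. The positions thus depend on the annotation, as for Ly6e, whose merged exons span 3784 bases. Isg15 moved from position 21 with DMSO to position 4 with CMA in WT, where it reached 564 ± 24.7 CPM per kilobase (SD, n = 3), beside 1372 ± 6.52 for Ly6a, 1262 ± 39.0 for Ifi27l2a and 633 ± 12.1 for Shisa5. Rsad2 moved from position 44 to 15 and Mx1 from 42 to 17.

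Without CMA the 2 genotypes already differed at many of these genes. The comparison uses the same WT DMSO libraries as the CMA effect in WT, so a value in one is not independent of the other. In WT cells with DMSO 12 genes were higher and 17 lower than in STINGgt/gt cells with DMSO (edgeR, adjusted p under 0.05), and 17 were not called, beside 22.9% higher and 19.8% lower (42.7% together) among all genes tested. Only 4 of the 29 differences called, those of Plac8, Ifitm3, Ifitm1 and Mx1, exceeded 0.75 on the log2 scale.

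The largest difference was that of Plac8, a cysteine-rich protein of lymphoid and myeloid cells. With DMSO it measured 61.0, 71.7 and 77.8 CPM in WT, whereas the STINGgt/gt libraries gave 11.8, 10.8 and 11.6 (log2 2.62, edgeR adjusted p = 6.06e-12). With CMA it was 163, 167 and 175 CPM in WT and 12.3, 9.84 and 8.94 in STINGgt/gt. The change with CMA in WT (2.39-fold, log2 1.26, edgeR adjusted p = 8.95e-10) was thus smaller than the difference between the genotypes without it.

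Ifitm3 (log2 1.39, adjusted p = 1.19e-06) and Ifitm1 (log2 1.36, edgeR adjusted p = 9.15e-07) followed. Ifitm1 in WT with CMA, at 2.41 to 3.09 CPM, remained above its 6 STINGgt/gt libraries, at 1.25 to 1.70. Smaller positive differences were found for Rsad2 (0.63), Ly6a (0.57), Ly6e (0.50), Ly6c2 (0.39), Tdrd7 (0.39), Trafd1 (0.23), Tor3a (0.21), Epsti1 (0.21) and Apobec3 (0.18). With DMSO, 7 of 7 B-cell markers and 5 of 6 CD8 and natural killer markers were also higher in WT. So were 5 of 5 tested myeloid and dendritic markers, and 22.9% of all genes tested. The summed levels are given above. Myeloid and dendritic markers were low in STINGgt/gt and may have passed the filter only through the WT libraries. Their count may therefore not be independent of this difference. Of the members, 12 went the same way as these markers and 17 the other way. The part of other cells in the levels of the members was not tested.

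Lower in WT were Mx1 (log2 -0.85, edgeR adjusted p = 0.000155), the neighbours Ms4a4b (-0.71) and Ms4a4c (-0.67), Mx2 (-0.62), Ifi44 (-0.62), Isg20 (-0.61), Ddx60 (-0.52) and Xaf1 (-0.44), and by less Uba7 (-0.33), Rnf213 (-0.33), Ube2l6 (-0.32), Adar (-0.25), Mov10 (-0.23), Sp110 (-0.22), Lgals9 (-0.21), Ifi35 (-0.17) and Nmi (-0.16). Each of these 17 genes rose with CMA in WT. Rsad2, the gene with the largest CMA effect, differed in the other direction from Mx1, which had the next largest. The genotype calls of Ddx60, Rnf213, Nmi, Ifi44, Lgals9, Epsti1, Trafd1 and Ifi35 were lost in at least 1 alternative, and the other 21 of 29 were kept in each. Leaving out WT DMSO replicate 1 alone ended the calls of Ddx60, Rnf213, Nmi, Ifi44 and Lgals9. The calls of Ddx60 and Rnf213 were also lost without WT DMSO replicate 2, that of Epsti1 without WT DMSO replicate 3, and that of Rnf213 without STINGgt/gt CMA replicate 1. Of the STINGgt/gt DMSO libraries, replicate 1 was needed for Ddx60, Nmi and Trafd1, replicate 2 for Nmi, Trafd1 and Epsti1, and replicate 3 for Rnf213, Ifi44 and Ifi35. The adjusted p reached 0.227 for Rnf213, 0.173 for Ddx60, 0.135 for Nmi, 0.109 for Ifi44, 0.0782 for Epsti1, 0.0593 for Trafd1, 0.0556 for Ifi35 and 0.0513 for Lgals9 by edgeR or the other tools run.

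**Figure D4:**
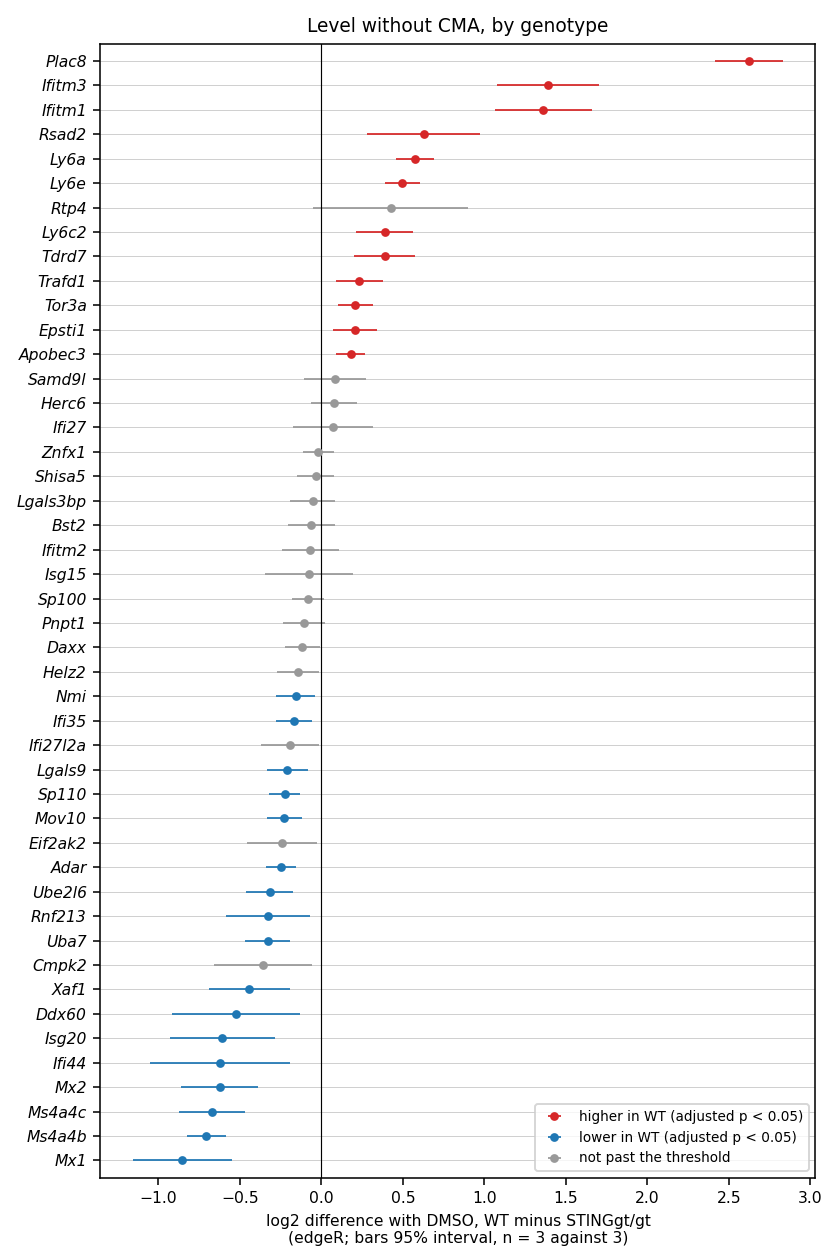
Log2 difference between WT and STINGgt/gt T cells with DMSO for each gene, with 95% intervals from the edgeR model (3 libraries against 3). Plac8 at 2.62 stands apart, Ifitm3 and Ifitm1 lie near 1.4, and most other values are within 0.75 of zero on either side.

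Around these targets, 29 of 32 listed genes of the interferon pathway itself were tested. The counts below stand against the 33% of all genes tested that were called higher and the 37.4% called lower with CMA in WT. Of 5 tested ligands 4 had at most 2 reads in each WT library with DMSO and at most 3 in each STINGgt/gt library, so they entered the test through the WT libraries with CMA and their call is no independent count. Their levels there were 34 to 58 reads for Ifnb1, 61 to 66 for Ifna4, 537 to 867 for Ifnl2 and 615 to 900 for Ifnl3. These are RNA reads. By bioassay, the paper could not detect type I interferon protein from T cells treated with CMA. Ifng, the type II interferon, fell (log2 -0.73). Of 9 receptor and kinase genes 5 rose, among them Ifnar1 (0.98) and Tyk2 (1.12), and Ifnar2 and Ifnlr1 fell. Of 10 transcription factors 7 rose, led by Irf7 (5.69), with Stat2 at 1.98 and Irf9 at 1.36, and 3 fell (lowest value -0.56). Of 5 feedback inhibitors Usp18, the protease that removes ISG15 and blocks the receptor, rose most (4.02) and Socs3 fell (-0.37). In STINGgt/gt cells 2 of the 29 were higher (Irf1 0.29 and Irf8 0.21) and 2 lower (Ifngr2 -0.27 and Socs3 -0.25), beside 0.398% and 0.92% of all genes tested.

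The interferon-stimulated response element was searched in the promoters, since it is the sequence through which most of these genes are known to be read. RefSeq windows of GRCm38.p6, from 250 bases before to 50 bases after a start site, were at hand for 38 of the 46 genes. The element's core, searched as 2 copies of GAAA with any 2 bases between them on either strand (2 copies of TTTC when read on the other), with overlapping matches allowed, stood in a window of 11 of these 38 genes (28.9%) and of 1079 of all 27025 genes in the table (3.99%), or in 19.0% of the members' windows and 3.44% of all windows, which have the same length. It was present for 10 of 34 genes that rose and for 1 of 4 that fell, Ifitm2. Among the genes with a log2 change over 3 it was present for 3 of 9. The other interferon motif, the gamma-activated site TTCNNNGAA, stood in windows of 7 of 38 genes (18.4%) and of 9.55% of all genes. Counted by window, it stood in 12.1% of the members' windows and 8.3% of all windows. A match is a description of the sequence and not a measured binding site. Nor does a window without a match show that a gene lacks a response element. In Xaf1, which rose, and Pnpt1, which fell, 2 copies of GAAA stand with 1 base between them, which the search missed.

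The windows below show the matches upstream of the start site for the 3 genes with the largest change among those that hold one, for Bst2 and for Ifitm2, the faller. Matches are in capitals, the rest in lower case, and each is written 5′ to 3′ on the strand of the gene. They come from RefSeq on GRCm38.p6: Rsad2 from chr12:26456548-26456587 (minus strand, positions -135 to -96 from the start), Ddx60 from chr8:61928019-61928086 (plus, -68 to -1), Isg15 from chr4:156200860-156200911 (minus, -93 to -42), Bst2 from chr8:71537572-71537617 (minus, -145 to -100) and Ifitm2 from chr7:140955983-140956022 (minus, -61 to -22).
Rsad2: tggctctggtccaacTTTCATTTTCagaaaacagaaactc
Ddx60: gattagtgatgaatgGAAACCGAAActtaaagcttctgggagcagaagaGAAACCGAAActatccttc
Isg15: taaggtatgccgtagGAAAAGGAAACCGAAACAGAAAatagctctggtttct
Bst2: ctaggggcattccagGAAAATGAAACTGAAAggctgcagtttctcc
Ifitm2: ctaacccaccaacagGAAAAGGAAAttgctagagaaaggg

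Isg15, which rose 36.1-fold, holds 3 overlapping matches within 22 bases, Ddx60 (68-fold) 2 separate copies of the same 10 bases, and Bst2 (5.15-fold) 2 overlapping matches. Rsad2, which rose most, holds 1 match, in the other orientation. Ifitm2, which fell by 0.23 on the log2 scale, holds a match too, and its neighbour Ifitm3, which rose 7.18-fold, holds the same 10 bases from position 3 after its start, followed by the match found in Ddx60.
Ifitm3: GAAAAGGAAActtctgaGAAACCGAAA

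**Figure D5:**
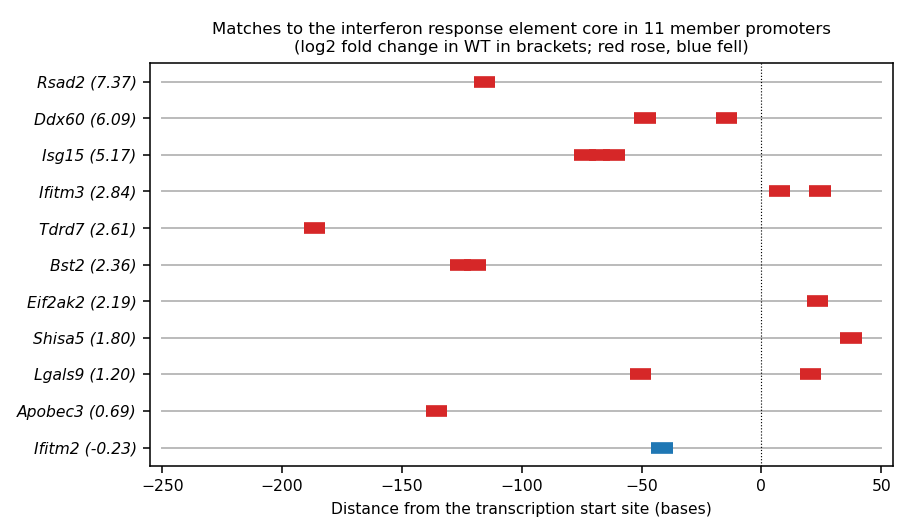
Position of each match to the response element core in the promoter windows of 11 genes, in bases from the transcription start site (windows reach from 250 before to 50 after it), with the genes ordered by their log2 fold change in WT, given in brackets. Matches lie between positions -191 and 42, and Ifitm2, the 1 gene of the 11 that fell, is in blue.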

How the data were processed

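RNA was measured in 12 libraries (TruSeq Stranded mRNA, Illumina HiSeq), 3 in each of 4 groups. The authors deposited counts of reads per Ensembl gene, not normalized. The submitters' processing notes name cutadapt 1.3, STAR 2.4.0f1, HTSeq 0.6.1, RSEM 1.2.16 and GRCm38. The annotation and strand setting are not given in the sources used here, so reads of 9 members that share exonic sequence with a gene on the opposite strand in GENCODE M21 (Eif2ak2, Znfx1, Adar, Apobec3, Rnf213, Trafd1, Sp110, Ifi35, Ms4a4c), and of 6 with one on the same strand (Ifitm2, Apobec3, Uba7, Herc6, Sp100, Rtp4), may be split or lost. The authors also deposited log2 expression values for 11921 genes, which equal the log2 of the count plus 0.5, shifted by 1 offset per library. Entries that name no gene (27.8% to 30.3% not unique, 4.86% to 7.16% outside genes, 0.594% to 0.635% ambiguous) were left out of library sizes.

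The counts were tested with edgeR 4.0.16 (glmQLFit and glmQLFTest, R 4.3.3), with filterByExpr by group (13811 genes), TMM scaling and the 4 groups in 1 model, two-sided, adjusted after Benjamini and Hochberg across the tested genes, at a threshold of 0.05. An exact permutation test of 3 libraries against 3 cannot give a p below 0.1 and was not used. With 3 libraries per group, their number limits the precision. The members, role groups and pathway and marker lists were chosen with earlier results of these data known. Values in each WT library are given for the genes of each role group with the largest and smallest change and for those that fell. The same holds for those that changed in STINGgt/gt and those with low counts. For STINGgt/gt, values in each library are given for some of these genes, and a range, a maximum or no value for the others. Alternatives were library-size scaling, DESeq2's size factors in edgeR, DESeq2 1.42.0, limma-voom, limma 3.58.1 on the log2 values, no filter on low counts, a minimum of 10 counts per library, the groups compared alone, a replicate block and leaving out each library. Positions and exon lengths (all annotated exons of a gene merged) are from GENCODE M21 (GRCm38), in which all 46 members were found. No promoter entry was matched for 8 members.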

Additional observations from a re-analysis of the deposited data

Results flagged for a closer look

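The CMA effect was not the same in the 2 genotypes for 42 of the 46 genes, by edgeR's test of the difference itself (adjusted p under 0.05). For 41 the effect was more positive in WT and for Ly6c2 more negative, and over all genes tested 58.8% passed this test. On the log2 scale the difference (WT minus STINGgt/gt) was, among the genes acting on the virus life cycle, 6.80 for Mx1, 4.96 for Mx2, 3.08 for Ifitm3 and 2.44 for Bst2. Among the genes acting on nucleotides and RNA, it was 7.12 for Rsad2, 6.36 for Ddx60, 5.17 for Cmpk2, 3.77 for Isg20, 2.67 for Tdrd7, 2.21 for Eif2ak2, 2.17 for Samd9l, 2.14 for Helz2, 2.09 for Znfx1, 1.53 for Mov10, 1.43 for Adar and 0.72 for Apobec3. For the conjugation genes, it was 5.28 for Isg15, 4.19 for Herc6, 3.00 for Rnf213, 2.68 for Uba7, 2.45 for Trafd1 and 1.78 for Ube2l6. For the nuclear body genes and partners, it was 1.74 for Daxx, 1.45 for Sp100, 1.33 for Ifi35, 1.27 for Nmi and 0.99 for Sp110. Of the other intracellular genes, it was 5.57 for Ifi44, 5.36 for Rtp4, 4.08 for Xaf1, 2.98 for Ifi27l2a, 1.87 for Tor3a, 1.80 for Shisa5, 1.40 for Plac8 and 1.18 for Epsti1. Of the surface and secreted proteins, it was 2.46 for Ms4a4c, 1.89 for Lgals3bp, 1.25 for Lgals9, 0.98 for Ly6e, 0.50 for Ly6a, 0.48 for Ms4a4b and -0.62 for Ly6c2. No cause of any of these differences was tested.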

How the results depend on the processing

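The 41 genes called higher in WT were called higher in each of the 21 alternatives, and of the 5 lower ones Ifitm2 lost its call in 7 (4 to 5 lower). In STINGgt/gt the count of members called higher stayed at 0. The count called lower, 1 (Ifi27) as reported, was 0 with DESeq2, 2 without a filter (Ifi27 and Ifi27l2a), 4 with the groups compared alone (Ifitm2, Sp100, Ifi27 and Ifi27l2a) and 0 to 2 when 1 library was left out. The difference between genotypes called 41 higher throughout and 1 lower as reported, 3 with library-size scaling (Ifitm1, Pnpt1 and Ly6c2) and 1 to 2 when 1 library was left out. The negative difference of Ifitm1 passed in 5 of 20 alternatives (without WT DMSO or CMA replicate 3, STINGgt/gt DMSO replicate 2 or STINGgt/gt CMA replicate 3, and with library-size scaling, lowest adjusted p 0.0209) and that of Pnpt1 in 4 (without WT DMSO replicate 1 or 2, with library-size scaling and with a replicate block, adjusted p 0.0131 to 0.0481, and 0.0294 with the block). The sign of the difference is undetermined for the genes near 0: for Ifi27 it was -0.024 under library-size scaling and lay between -0.074 and 0.19 over all alternatives, and for Ifitm2 it was 0.0053 with limma on the log2 values and lay between -0.15 and 0.050. Between genotypes with DMSO the counts were 10 to 12 higher and 12 to 22 lower.

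Samples with the same replicate number deviated together only in part (correlations of 0.0254, 0.262 and 0.291 for the WT numbers, 0.132, 0.151 and 0.188 for those of STINGgt/gt), so the numbers were not taken as pairs. With a replicate block, 2 genes were lower in STINGgt/gt (Ifi27 and Ifi27l2a) and 2 had a negative difference (Pnpt1 and Ly6c2), and 41 rose and 5 fell in WT. The genotypes could not be compared with the block, and the groups compared alone give no difference of effects. The scalings moved the median of all genes in WT by less than 0.1 (from -0.064 to -0.0096). Levels below 2 CPM rest on few reads, as for Rtp4 without CMA, and limit its fold change.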
